A study of Homo sapiens with 6 samples.

Results

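The 10 genes described here are the retinoic acid receptors RARA, RARB and RARG, the retinoid X receptors RXRA and RXRB, and 5 genes that make, carry, clear or answer to retinoids (CYP26B1, ALDH1A3, CRABP2, DHRS3 and RARRES1). They were taken by gene symbol from a table of 60605 genes. They were selected on this very contrast, with the fold change and adjusted p of RARB already known, so the values of the 10 genes are given as a description and no test of them is read. RNA was sequenced from the human breast cancer line MDA-MB-231 (triple-negative, so without hormone receptors or HER2 amplification) carrying a negative control hairpin (shControl, n = 3) or a hairpin against PUS1 (shPUS1, n = 3). PUS1 is a pseudouridine synthase, an enzyme that turns uridines of RNA into pseudouridines. All cells grew in medium with 10% fetal bovine serum, and no retinoid was added in either group as far as the labels and methods say. The hairpins were delivered by lentivirus from the pLKO.1 vector, followed by puromycin selection. The column names of the shPUS1 counts all carry the same knockdown number, but the labels do not say which hairpin against PUS1 it stands for. No library with a different knockdown number is among the samples, so effects of the hairpin itself cannot be told apart from those of lower PUS1. The labels also do not say whether the replicates of a group came from separate selections. The spread between libraries may therefore be technical, and p-values measure only the spread between these samples.

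Retinol is oxidized to retinaldehyde and then to retinoic acid, the hormone of this pathway. Retinoic acid binds RARs, which sit on DNA as heterodimers with RXRs and hold corepressors until the ligand brings in coactivators. Enzymes of the CYP26 family break retinoic acid down, and RARB itself is a classical retinoic acid-induced gene whose expression is often low or lost in breast cancer cells.

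The classical site for an RAR and RXR pair is a direct repeat of a half-site with a spacer of 5 bases, called DR5. Both strands of RefSeq promoter windows of 300 bases (GRCh38.p14) were searched for the half-site AGGTCA, which is the common consensus. Equally searched was AGTTCA, which occurs in RARB as printed here. The other allowed forms were GGGTCA, which occurs in RARB as well, and lastly GGTTCA, which belongs to the repeat of RARB. A DR5 was any pair of these half-sites on the same strand with 5 bases of any kind between them. All 10 genes had a window, 19 windows in all, and 8 of the 19 held at least 1 half-site, against 38.6% of 35093 windows over all genes. A DR5 was present in 31 of the 35093 windows (0.0883%), which belong to 29 genes. RARB was the only one of the 10 genes with a DR5 in these windows. The allowed forms include the half-sites of its repeat, so finding that repeat in RARB followed from the choice of forms. Repeats spaced by 1 base were present in 0.131% of windows and repeats spaced by 2 bases in 0.0399%, and neither was found in the windows of the 10 genes. A match describes letters and says nothing of binding, and these windows miss elements that lie farther away. Below, the 250 bases before a transcript start are printed 5′ to 3′ on the gene's strand with half-sites in capitals. RARB is shown because its window holds the repeat. CYP26A1, another retinoic acid hydroxylase and a textbook retinoic acid target, is shown as a second gene with a DR5. CYP26B1 is shown because its level was also higher in every shPUS1 library while its window holds no half-site.
RARB, chr3:25428013-25428262, plus strand: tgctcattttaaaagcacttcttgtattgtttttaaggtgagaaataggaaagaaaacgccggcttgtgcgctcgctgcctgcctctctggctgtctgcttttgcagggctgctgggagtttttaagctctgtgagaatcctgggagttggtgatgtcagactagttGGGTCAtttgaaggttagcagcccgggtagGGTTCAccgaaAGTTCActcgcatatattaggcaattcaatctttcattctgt
CYP26A1, chr10:93073643-93073892, plus strand: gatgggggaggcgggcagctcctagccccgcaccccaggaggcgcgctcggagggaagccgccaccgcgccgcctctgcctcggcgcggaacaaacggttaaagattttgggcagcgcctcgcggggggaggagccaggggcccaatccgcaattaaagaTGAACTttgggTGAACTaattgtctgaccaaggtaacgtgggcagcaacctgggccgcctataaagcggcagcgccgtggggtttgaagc
CYP26B1, chr2:72147863-72148112, minus strand: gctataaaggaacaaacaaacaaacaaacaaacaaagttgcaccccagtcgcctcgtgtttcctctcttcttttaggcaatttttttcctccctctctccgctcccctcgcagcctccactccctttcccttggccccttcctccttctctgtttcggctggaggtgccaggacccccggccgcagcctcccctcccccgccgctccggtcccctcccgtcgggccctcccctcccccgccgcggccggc

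In RARB the repeat spans 17 bases at chr3:25428210-25428226 with 36 bases between its end and the transcript start at 25428263. The window had a GC content of 46.7% and 7 CpG dinucleotides, against medians of 58.7% and 14 over all windows. RefSeq gives RARB 4 such windows, and the DR5 is in 1 of them. GENCODE release 29 lists 8 transcripts of RARB, of which 4 are protein-coding and 2 start inside the window with the DR5. Another of them starts at 25174332, so the printed stretch lies inside the bounds of the gene. The counts are summed over the whole gene and cannot tell which start was used. In CYP26A1 the repeat reads on the opposite strand, at chr10:93073803-93073819, with 73 bases between its end and the transcript start. CYP26A1 had 0 or 1 count in each of the 6 libraries and was not tested.

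Each library held 14241505 to 19625998 estimated counts in all, enough to test 14748 genes. The knockdown was visible in the targeted gene. PUS1 had 14.5, 27.5 and 12.1 CPM (counts scaled to the library size) in shControl replicates 1, 2 and 3 and 6.57, 5.47 and 5.37 CPM in the shPUS1 replicates. Its log2 fold change, shPUS1 relative to shControl, was -1.64 (SE 0.32, adjusted p = 0.0462, edgeR quasi-likelihood test with Benjamini-Hochberg adjustment). Without shControl replicate 2 it was -1.20, and the call was lost without shControl replicate 1 (-1.78) or without shPUS1 replicate 1 (-1.74), 2 (-1.59) or 3 (-1.59). shControl replicate 2 stood apart from the other controls, with Pearson correlations of log2 CPM across genes of 0.951 and 0.952 with them, against 0.981 between the other two and 0.987 to 0.991 among the shPUS1 libraries. The fold changes of the 9 tested genes, and of named pathway genes and neighbours of RARB that it moved by over 1.5 times or turned, are therefore also given without it. All 6 mesenchymal markers checked for this cell line (VIM, CD44, ZEB1, CAV1, EGFR and AXL) were above 1 FPKM in every library, with a summed level of 847 to 1059 FPKM in shControl and 645 to 677 FPKM in shPUS1. Of 9 luminal and epithelial markers 3 exceeded 1 FPKM in every library, with sums of 9.81 to 12.0 and 9.60 to 10.2 FPKM, and ESR1, PGR, FOXA1 and TFF1 were at or near 0. Among leukocyte markers CD68 did so (sums of 37.3 to 42.7 and 27.8 to 31.7 FPKM), with PTPRC, CD3E and LYZ at or near 0. Of 5 endothelial and fibroblast markers 1 did so. Their sum was 2.27 to 9.0 FPKM in shControl and 10.4 to 12.6 FPKM in shPUS1, with no call, and its part in the results below was not tested.

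Among the receptors, RARB stood far from the other 4. RARB (ENSG00000077092, chr3:25174332-25597932, plus strand) is a ligand-dependent transcription factor. It had 67, 18 and 58 counts in shControl replicates 1, 2 and 3, which is 4.39, 0.944 and 3.95 CPM. In shPUS1 replicates 1, 2 and 3 it had 419, 581 and 440 counts, which is 23.3, 31.8 and 26.0 CPM. Every shPUS1 library lay above every control, and the lowest control was the library that stood apart. The group means were 3.09 ± 1.87 CPM (SD, n = 3) in shControl and 27.0 ± 4.34 CPM (SD, n = 3) in shPUS1. The fitted log2 fold change was 3.15 (SE 0.47), or 8.85-fold. Without shControl replicate 2 it was 2.69 (SE 0.18). In bulk RNA, more mRNA per cell and more cells that hold the mRNA cannot be told apart.

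A gene was past the threshold where its adjusted p was under 0.05 and its level changed by 1 or more on the log2 scale. Of the 9 tested genes, 1 was past it upward (RARB), against 0.888% of all genes tested, and 0 downward, against 0.481%, so 1 in either direction against 1.37%. The count was 1 at any fold in the main test (2.58% of all genes tested). With the fold limit it was 1 without shControl replicate 2 (3.28%) and 1 with DESeq2 (3.65%), and that gene was RARB each time. Short of the fold limit, CYP26B1, RXRB and DHRS3 also had an adjusted p under 0.05 (edgeR) without shControl replicate 2, and CYP26B1 with DESeq2. Since RARB was chosen with this contrast in view, nothing is read from these counts. The call of RARB depended on which libraries were present. It was kept without shControl replicate 2 or 3 (3.36 without replicate 3). It was lost, with a fold change of similar size, without shControl replicate 1 (3.50) and without shPUS1 replicate 1 (3.23), 2 (3.01) or 3 (3.17). The plot of fold changes with 1 library left out shows these values beside those of CYP26B1 and of the pathway genes described below.

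**Figure D1:**
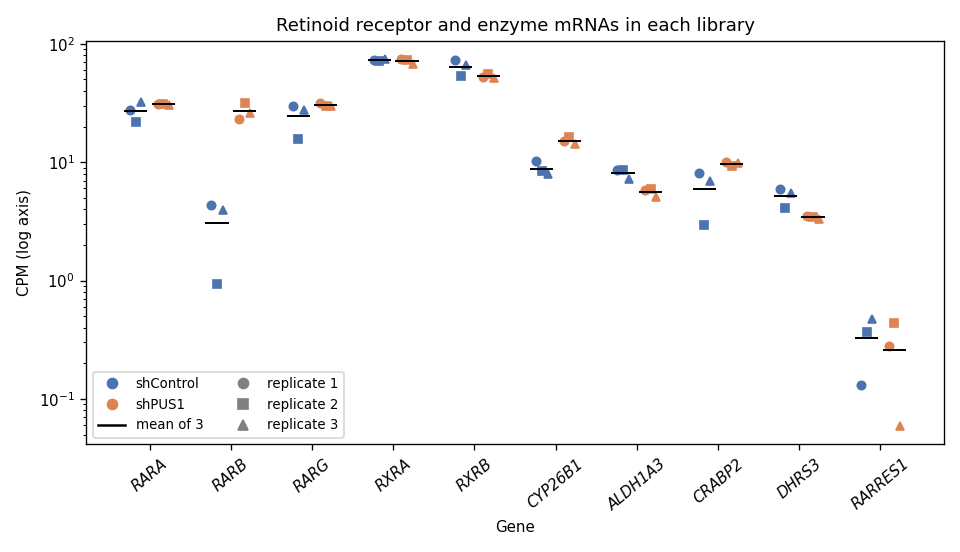
CPM on a log axis for the 10 genes in each of the 6 libraries, with blue for shControl, orange for shPUS1, marker shape for the replicate and a black line for the mean of 3. RARB lies between 0.944 and 4.39 CPM in shControl and between 23.3 and 31.8 CPM in shPUS1, while RXRA lies between 67.5 and 74.5 CPM throughout.

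RARA (ENSG00000131759, chr17:40309180-40357643, plus strand) encodes the broadly expressed retinoic acid receptor alpha. It had 27.4, 21.8 and 32.4 CPM in the shControl replicates and 30.9, 31.2 and 30.5 CPM in the shPUS1 replicates. The shPUS1 libraries lay inside the range of the controls, with a log2 fold change of 0.18 (SE 0.17), or 0.04 without shControl replicate 2. RARG (ENSG00000172819, chr12:53210567-53232980, minus strand), the form known from skin, had 29.8, 15.6 and 27.9 CPM in shControl and 31.6, 29.9 and 29.6 CPM in shPUS1. The groups overlapped narrowly, since shControl replicate 1 exceeded shPUS1 replicate 3. The log2 fold change of RARG was 0.31 (SE 0.24) with all libraries and 0.06 (SE 0.10) without shControl replicate 2.

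The RXR genes encode the common partners of RARs and of other nuclear receptors. RXRA (ENSG00000186350, chr9:134317098-134440585, plus strand) had 73.2, 71.7 and 74.5 CPM in shControl and 74.4, 72.7 and 67.5 CPM in shPUS1. Its log2 fold change was -0.03 (SE 0.11), the smallest of the 9 tested genes in size, and -0.05 (SE 0.09) without shControl replicate 2. RXRB (ENSG00000204231, chr6:33193588-33200665, minus strand) had 73.0, 53.8 and 66.2 CPM in shControl and 52.3, 55.2 and 51.7 CPM in shPUS1. One control, shControl replicate 2, lay among the shPUS1 libraries, and the other controls lay above them all. The log2 fold change of RXRB was -0.28 (SE 0.14) and -0.40 (SE 0.10) without shControl replicate 2.

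To compare levels between genes, FPKM was used, which divides counts by exonic length. RXRB had the highest mean in both groups, 16.7 ± 2.92 FPKM (SD, n = 3) in shControl and 13.5 ± 0.53 FPKM (SD, n = 3) in shPUS1, and lay above the next gene in every library of the group. In shControl it was followed by RXRA (6.10), RARA (5.79), CRABP2 (5.61) and RARG (4.83 FPKM), and no neighbouring pair of these was separated beyond its spread. CYP26B1 (1.84), ALDH1A3 (1.53), DHRS3 (1.49), RARB (0.853) and RARRES1 (0.163 FPKM) came after them. RARB overlapped DHRS3 and lay above RARRES1. In shPUS1 the order after RXRB was CRABP2 (8.90), RARB (7.25), RARA (6.44), RXRA (5.87) and RARG (5.86 FPKM). RARB thus moved from rank 9 to rank 3, where it overlapped both CRABP2 and RARA. CYP26B1 (3.12), ALDH1A3 (1.05), DHRS3 (0.963) and RARRES1 (0.130 FPKM) kept the last ranks.

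Within the sum of the 3 RAR genes, RARB made up 9.29%, 3.26% and 8.01% of FPKM in shControl replicates 1, 2 and 3. In shPUS1 replicates 1, 2 and 3 it made up 33.2%, 40.9% and 36.6%. The summed level of the 3 genes was 13.02, 7.66 and 13.73 FPKM in shControl and 18.7, 20.9 and 19.0 FPKM in shPUS1. The highest control sum was below the lowest shPUS1 sum. These shares use the RARB values that led to its choice and are given as a description.

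**Figure D2:**
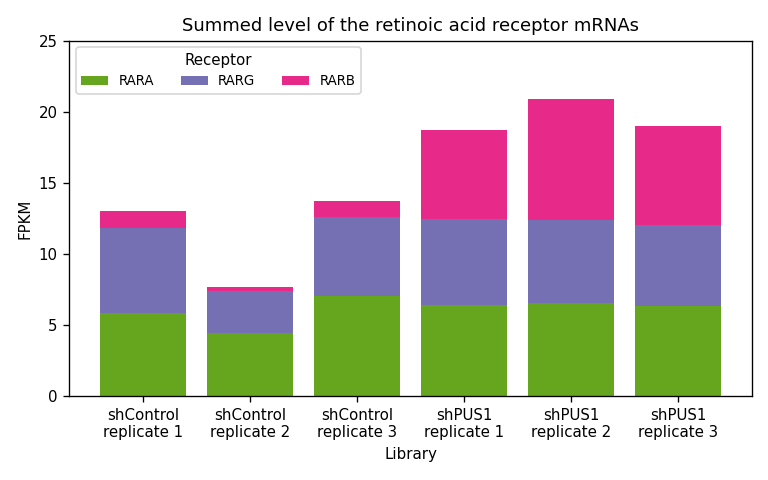
Stacked bars of FPKM for RARA (green), RARG (violet) and RARB (pink) in each of the 6 libraries. RARB forms 3.26% to 9.29% of the bar in shControl and 33.2% to 40.9% in shPUS1, and the shortest bar, of 7.66 FPKM, is shControl replicate 2.

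Among the enzymes, CYP26B1 (ENSG00000003137, chr2:72129238-72147862, minus strand) hydroxylates retinoic acid and so clears it. It had 10.1, 8.49 and 7.90 CPM in shControl and 15.0, 16.5 and 14.3 CPM in shPUS1. All shPUS1 libraries lay above all controls, with means of 8.85 ± 1.16 and 15.2 ± 1.12 CPM (SD, n = 3 each). The log2 fold change was 0.78 (SE 0.18), or 1.72-fold, and 0.75 (SE 0.15) without shControl replicate 2. It did not reach the fold threshold in either case.

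ALDH1A3 (ENSG00000184254, chr15:100877714-100916626, plus strand) oxidizes retinaldehyde to retinoic acid. It had 8.57, 8.65 and 7.15 CPM in shControl and 5.84, 5.96 and 5.08 CPM in shPUS1, all below the lowest control. Its log2 fold change was -0.53 (SE 0.20), and -0.49 (SE 0.17) without shControl replicate 2. Of its 100-base stretches in annotated transcripts, 21.0% were shared with an unnamed overlapping locus, so part of its count is uncertain. DHRS3 (ENSG00000162496, chr1:12567910-12618210, minus strand) reduces retinaldehyde back to retinol. It had 5.89, 4.14 and 5.45 CPM in shControl and 3.51, 3.45 and 3.31 CPM in shPUS1, again with every shPUS1 library below every control. The log2 fold change of DHRS3 was -0.59 (SE 0.23), and -0.74 (SE 0.19) without shControl replicate 2. The log2 fold changes of the enzyme that forms retinoic acid and of the one that draws off its precursor were thus both negative, and that of the enzyme that clears it was positive, none past the threshold.

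CRABP2 (ENSG00000143320, chr1:156699606-156705816, minus strand) is a small protein that carries retinoic acid to RARs in the nucleus. It had 8.12, 2.94 and 6.88 CPM in shControl and 10.1, 9.30 and 9.80 CPM in shPUS1. Every shPUS1 library lay above every control, but the log2 fold change of 0.71 (SE 0.35) fell to 0.37 (SE 0.15) without shControl replicate 2, its lowest library. RARRES1 (ENSG00000118849, chr3:158696892-158732489, minus strand), named for its response to retinoids, had 2, 7 and 7 counts in shControl and 5, 8 and 1 counts in shPUS1. It was too low to be tested, and its groups overlapped.

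Over the 9 tested genes, 5 had a positive and 4 a negative log2 fold change, with a median of 0.18 against -0.03 over all genes tested. All shPUS1 libraries lay above all controls in 3 of them (RARB, CYP26B1 and CRABP2), against 18.8% of all genes tested. All lay below in 2 (ALDH1A3 and DHRS3), against 17.3%, so 5 did not overlap (36.1% of all genes tested) and 4 did. Nothing is read from these counts either, since they come from the contrast known when the genes were chosen. Strand was not stated for the counting. Annotated genes on the opposite strand overlap RARA (RARA-AS1), RXRB (SLC39A7), RARRES1 (MFSD1), RARB, ALDH1A3 and CRABP2, and reads from exons that such a pair shares cannot be separated. Shared transcript stretches amounted to 9.27% for RARA, 3.53% for RXRB and 10.4% for RARRES1, and to 0 for RARB, RARG, RXRA, CYP26B1, CRABP2 and DHRS3.

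As a description over the 6 libraries, Pearson correlations of log2 CPM with RARB were 0.92 for CYP26B1, 0.89 for CRABP2, 0.80 for RARG and 0.76 for RARA. They were -0.21 for RXRA, -0.40 for RXRB, -0.64 for DHRS3 and -0.90 for ALDH1A3. The 6 points form the 2 groups of the contrast and share library depth, so these values mostly restate the group difference. The genes most like RARB by this measure were IER3 (0.9994), SLC1A3 (0.9992), EPB41L5 (0.9988), TBC1D22B (0.9980) and MYZAP (0.9979), and 633 genes exceeded 0.95. IER3, an immediate early response gene, had 1070, 445 and 952 CPM in shControl and 2919, 3361 and 3168 CPM in shPUS1. SLC1A3, a glutamate transporter, had 20.2, 7.13 and 19.8 CPM in shControl and 60.7, 72.7 and 66.2 CPM in shPUS1. Both shared with RARB the low value in shControl replicate 2.

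Other genes of the pathway were taken from 8 lists written from general knowledge of it. They hold 94 genes, of which 54 were tested and 19 had 0 counts in every library. In the edgeR quasi-likelihood test with Benjamini-Hochberg adjustment, 1 of the 54 rose (THRB) and 2 fell (DHRS4 and THBD), against 0.888% and 0.481% of all genes tested. All shPUS1 libraries lay above all controls in 18 of the 54 and below in 7, against 18.8% and 17.3% of all genes tested, and the median log2 fold change was 0.14 against -0.03 over all genes tested. The plot of fold changes by list shows all of these genes.

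Genes upstream of the receptors were for the most part low or not past the threshold. Of 15 retinol and retinaldehyde enzymes 7 were tested, and 1 fell, against 0.481% of all genes tested. DHRS4, a retinal reductase of the short-chain dehydrogenase family, had 5.56, 6.97 and 4.02 CPM in shControl and 2.17, 1.70 and 2.07 CPM in shPUS1, all below the controls. Its log2 fold change was -1.48 (SE 0.29, adjusted p = 0.0462, edgeR), and -1.28 without shControl replicate 2. The gene shared 27.0% of its transcript stretches with other genes, 17.3% with DHRS4L2, and overlaps DHRS4-AS1, so its count is uncertain. RDH11 (0.31, SE 0.13) and RDH14 (0.20, SE 0.14), the most abundant of the list, were not past the threshold. Of 11 retinoid carriers and uptake genes, 5 were at 0 in every library. FABP5, a fatty acid carrier that also takes retinoic acid, was the 1 tested, at -0.38 (SE 0.36), and at 0.18 (SE 0.16) without shControl replicate 2. Of 8 genes for retinyl esters and provitamin A, 6 were tested and 0 were past the threshold by edgeR or by DESeq2, with 3 at an unadjusted p under 0.05, which 25.5% of all genes tested had. SCARB1, a lipoprotein receptor, was at -0.49 (SE 0.15) and DGAT1, an acyltransferase, at 0.03 (SE 0.20), or -0.16 (SE 0.10) without shControl replicate 2. The remaining retinoid receptor RXRG and the remaining hydroxylases CYP26A1 and CYP26C1 had at most 2 counts in a library.

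Of 28 genes known to be induced by retinoic acid 12 were tested, and 0 rose by edgeR, 1 (RARRES2) by DESeq2. In the same list 1 fell and 4 had an unadjusted p under 0.05 by edgeR. Over all genes tested 0.888% rose, 0.481% fell and 25.5% had such a p. The median log2 fold change was -0.16, against -0.03 over all genes tested. Some genes of this list, CYP26A1 and STRA6 among them, also count under another list. RARRES2, the chemerin gene, is named here for its call by DESeq2 and was at 1.14 (SE 0.26). All shPUS1 libraries lay above all controls for RARRES2, and by edgeR it was past the threshold without shControl replicate 2 (1.16, SE 0.26). THBD, which encodes the anticoagulant receptor thrombomodulin, had 49.8, 42.8 and 56.1 CPM in shControl and 26.2, 23.3 and 24.4 CPM in shPUS1. All shPUS1 libraries lay below all controls, and the log2 fold change was -1.01 (SE 0.15, adjusted p = 0.0294, edgeR). TGM2, a transglutaminase and a common readout of retinoic acid, was at -0.40 (SE 0.15) and GPRC5A, an orphan receptor named for its retinoic acid induction, at 0.09 (SE 0.36), neither past the threshold. Without shControl replicate 2, TGM2 was at -0.27 (SE 0.11) and GPRC5A at -0.27 (SE 0.12). RARB, itself such a gene, thus lay far above the 12 tested genes of the list, whose log2 fold changes ran from -1.01 to 1.14. RARB was chosen for its value, and this order was not tested.

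Of 19 corepressors and coactivators 18 were tested. By edgeR 0 were past the threshold (1.37% of all genes tested) and 2 had an unadjusted p under 0.05 (25.5%). DESeq2 called 1 (NCOA3), against 3.65% of the genes to which it gave an adjusted p. NCOA3, a coactivator named here for that call, was at 1.01 (SE 0.26), and at 0.79 (SE 0.19) without shControl replicate 2. PRMT1, an arginine methyltransferase and coactivator, was at -0.24 (SE 0.14), or -0.14 (SE 0.10) without that library, and NCOR1, the nuclear receptor corepressor, at 0.26 (SE 0.21). Of 13 other receptors that pair with RXR, 10 were tested and 1 rose by edgeR, against 0.888% of all genes tested. DESeq2 also called NR4A2. THRB, the thyroid hormone receptor beta, had 16.5, 12.0 and 19.9 CPM in shControl and 34.6, 38.9 and 34.1 CPM in shPUS1, with no overlap. Its log2 fold change was 1.15 (SE 0.20, adjusted p = 0.0385, edgeR). PPARD (0.47, SE 0.22) and PPARA (0.98, SE 0.45), sensors of fatty acids, were not past the threshold, and were at 0.24 (SE 0.09) and 0.57 (SE 0.21) without shControl replicate 2. NR4A2, an orphan nuclear receptor named here for its call by DESeq2, was at 1.64 (SE 0.52). It had 7.46, 1.42 and 7.22 CPM in shControl and 14.9, 19.5 and 15.4 CPM in shPUS1, and by edgeR it was past the threshold without shControl replicate 2 (1.17, SE 0.16). All shPUS1 libraries lay above all controls in 8 of the 10, against 18.8% of all genes tested, and the median log2 fold change was 0.73. The list was not tested as a whole.

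The 3 pathway calls depended on which libraries were present. THRB kept its call without shControl replicate 3 (1.32), fell just short of the fold threshold without shControl replicate 2 (0.97) and lost the call without shControl replicate 1 (1.17) or shPUS1 replicate 1 (1.17), 2 (1.09) or 3 (1.19). DHRS4 kept it without shControl replicate 2 (-1.28) or 3 (-1.67) and lost it without shControl replicate 1 (-1.48) or shPUS1 replicate 1 (-1.56), 2 (-1.38) or 3 (-1.51). THBD kept it without shControl replicate 2 (-1.11) only, with -1.01 and -0.92 without shControl replicates 1 and 3 and values from -1.06 to -0.97 without any 1 of the shPUS1 replicates.

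**Figure D3:**
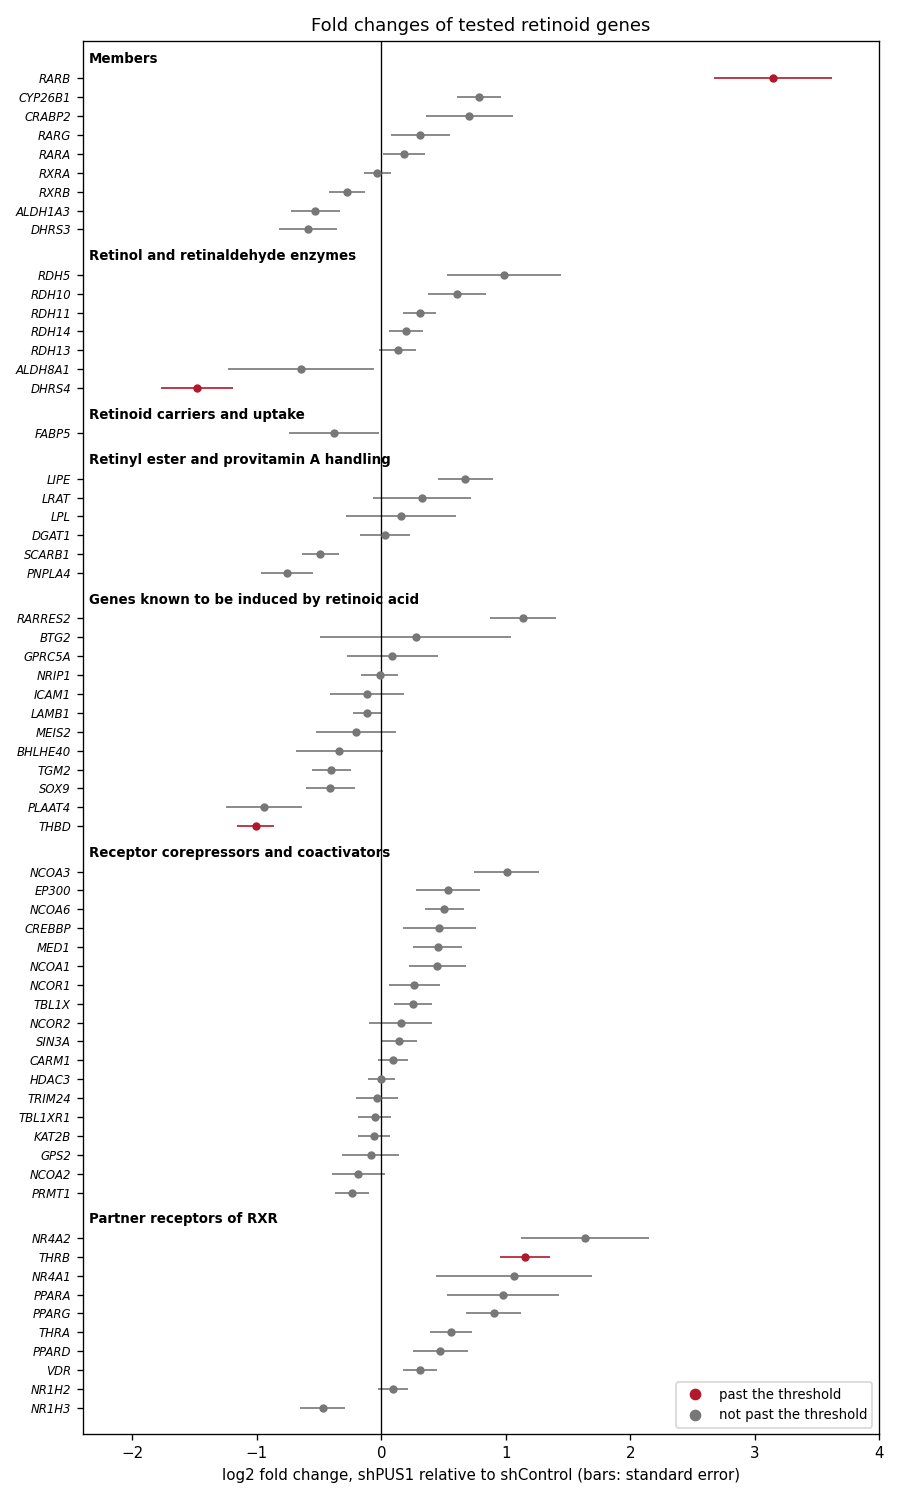
Log2 fold change of shPUS1 relative to shControl with its standard error for the 9 tested genes of the 10 described here (labelled Members) and for the 54 tested genes of the pathway lists, with red for genes past the threshold. RARB at 3.15 lies farthest to the right, and THRB at 1.15 is the only other red point above 0.

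**Figure D4:**
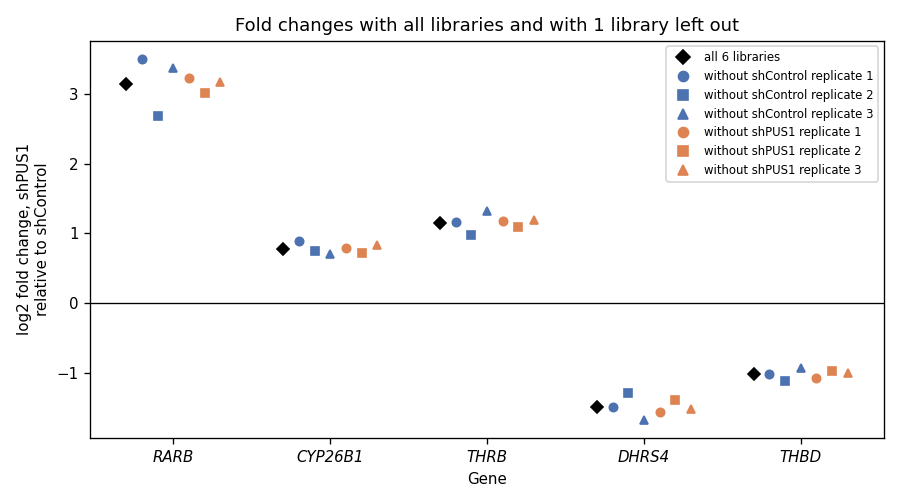
Log2 fold changes of RARB, CYP26B1, THRB, DHRS4 and THBD with all 6 libraries (black) and with 1 library left out (blue for a control, orange for shPUS1, marker shape for the replicate). RARB runs from 2.69 without shControl replicate 2 to 3.50 without shControl replicate 1, and no value crosses 0.

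The tested genes within 500 kb of RARB on chromosome 3 were not past the threshold, and their values lay on both sides of 0. TOP2B, a DNA topoisomerase whose listed end lies 52 bases from that of RARB, had 277, 223 and 247 CPM in shControl and 257, 261 and 283 CPM in shPUS1, with overlap and a log2 fold change of 0.10 (SE 0.12), or 0.02 (SE 0.10) without shControl replicate 2. NGLY1, which removes glycans from proteins and lies 121 kb from RARB, was at -0.53 (SE 0.16) with all shPUS1 libraries below the controls. OXSM, an enzyme of mitochondrial fatty acid synthesis 185 kb away, was at -0.66 (SE 0.27). It overlapped through shControl replicate 2 alone, which had 10.9 CPM against 22.2 and 19.8 CPM in the other controls and 10.3 to 12.1 CPM in shPUS1, and it was at -0.92 (SE 0.13) without that library. NGLY1 and OXSM overlap on opposite strands and share 3.23% and 11.4% of their transcript stretches with each other, so their counts may not be fully separate. TOP2B, NGLY1 and OXSM are all the genes tested within 500 kb of the listed bounds of RARB, and all lie beyond its end. THRB is the nearest tested gene on the other side. It lies 679 kb before the listed start of RARB, on the opposite strand and outside that limit, and was past the threshold upward (1.15, SE 0.20). RefSeq also gives RARB a transcript start at 24829321, before the listed start of 25174332. Measured from there, THRB, with its listed end at 24495756, would lie inside the limit. A link between RARB and THRB was not tested.

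**Figure D5:**
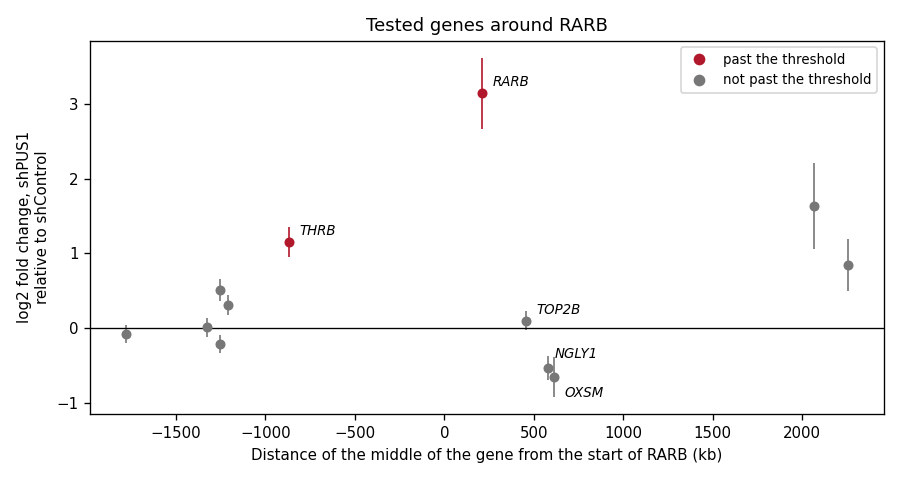
Log2 fold change with its standard error of tested genes within 2000 kb of RARB, against the distance in kb from the listed start of RARB to the middle of each gene, with red for genes past the threshold. RARB (3.15) and THRB (1.15) are the red points, and TOP2B, NGLY1 and OXSM lie between -0.66 and 0.10.

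Of the 29 genes with a DR5 in a promoter window, 9 were tested, and 1 (RARB) was past the threshold upward, against 0.888% of all genes tested. RARB was chosen with its value in this contrast known, so nothing is read from this count. The median log2 fold change of the 9, with RARB at 3.15 among them, was 0.41. The 8 other genes ranged from -0.62 (PRSS27) to 0.82 (COL24A1). Counts of genes with the repeat are too few for a comparison with all genes tested.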

How the data were processed

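RNA-seq libraries of MDA-MB-231 cells were analysed, 3 of shControl and 3 of shPUS1. Poly(A)-selected RNA was sequenced by the authors, aligned with HISAT2 and counted with HTSeq 0.6.1, per the labels and methods. The genome build, the annotation and the use of strand are not given in the sources used here. The deposited table gives estimated counts of each gene without normalization, partly not whole, and FPKM values that the authors made from them, the listed exonic length (other unit) and the library total. CPM, the count scaled to the library size, was computed here. Depth was 14241505 to 19625998 counts per library, and no library was pooled or left out. Of the 10 genes, 5 have the same start and end in GENCODE release 29 (GRCh38) and all 10 overlap.

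For the main test, edgeR 4.0.16 in R 4.3.3 was given the counts after rounding, a filterByExpr filter and TMM factors. Its quasi-likelihood fit had group as the only term, and Benjamini-Hochberg adjustment ran over 14748 genes. Log2 CPM used a prior count of 2. DESeq2 1.42.0 and limma 3.58.1 on log2(FPKM + 1) and log2(FPKM + 0.1) over genes with a mean of at least 1 FPKM were alternatives, as were DESeq2 size factors, no TMM, no filter, any fold, a replicate block and each library left out. The test was checked on simulated data. The 10 genes and the lists were chosen with earlier results of these data known. Named were the 10 genes, PUS1, per list up to 4 genes past the threshold and the 2 most abundant tested, the tested genes within 500 kb of RARB, and the 5 tested genes most correlated with it. Unnamed loci were not named. Some single genes of the lists are not reported here by name.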

Additional observations from a re-analysis of the deposited data

How the results depend on the processing

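Over all genes tested, 131 were past the threshold upward and 71 downward, among them 1 and 0 of the 10 genes and 1 and 2 of the pathway genes. The counts over all genes were 293 and 243 without the filter, 250 and 239 with DESeq2, 71 and 16 with limma on log2(FPKM + 1), 68 and 44 with log2(FPKM + 0.1), and 256 and 124 at any fold. Without the filter or with DESeq2, 4 pathway genes were higher, with RARRES2, NCOA3 and NR4A2 added to THRB (named after their values were seen). On log2(FPKM + 1) the pathway counts were 0 and 0, and on log2(FPKM + 0.1) 0 were higher. Leaving out 1 library gave 0 to 246 genes higher and 0 to 251 lower, 0 to 1 of the 10 genes higher, and 0 to 2 pathway genes in each direction. Without shControl replicate 2 the counts were 246 and 251. They were 11 and 0 without shControl replicate 1, 165 and 71 without shControl replicate 3, 11 and 0, 6 and 0, and 0 and 0 without shPUS1 replicates 1, 2 and 3. The cause was not tested.

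Residuals of libraries with the same replicate number correlated at -0.05, -0.03 and -0.19, so no pairing by number was seen. These residuals are taken from means of 3 libraries, with shControl replicate 2 apart from the other controls. They cannot decide whether libraries shared a batch. With a replicate block, 18 genes were higher and 0 lower, with 0 of the 10 genes and 0 and 0 of the pathway genes, and RARB was at 3.27. RARB ran from 2.19 on log2(FPKM + 1) to 3.50 over all alternatives. Of 416 single-gene values under an alternative, 353 kept direction and side of the threshold, 59 lost the call and 4 changed sign. Only genes past the threshold in the main test could lose the call, and most of the named genes were not past it. The 353 therefore do not measure how often a call was kept. The sign changes were those of RXRA, which ran from -0.067 without shPUS1 replicate 1 to 0.0077 without shPUS1 replicate 3, and of FABP5 (-0.63 to 0.18), DGAT1 (-0.16 to 0.19) and GPRC5A (-0.27 to 0.42), which ran between shControl replicate 3 and shControl replicate 2 being left out. RARRES1, RXRG and CYP26A1 had too few counts to test at this depth.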
